A study of Mus musculus with 3 samples.

Results

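The S100A genes encode small proteins that bind calcium through EF-hand motifs and mostly act as dimers, and 8 of them were followed here through the CD133+ bone marrow cells of young, old and control mice. The members were taken by name: S100a8, S100a9, S100a1, S100a4, S100a6, S100a10, S100a11 and S100a13, which are 8 of the 17 S100 genes and of the 27998 genes in the count matrices. S100a8 and S100a9 proteins pair to form calprotectin, a complex that binds calcium, zinc and manganese and is among the most abundant proteins of the neutrophil cytosol. In the marrow, neutrophils arise from promyelocytes, which make the azurophil granule proteins such as Mpo (myeloperoxidase) and Elane (neutrophil elastase), pass through precursors that make specific granule proteins such as Ltf and Ngp, and then make Retnlg and Mmp8 as they mature. S100A10 is the partner of annexin A2, S100A4 is best known from motile cells and S100A6 from dividing cells, and S100A1, S100A11 and S100A13 have been described in many tissues.

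The cells came from the bone marrow of mice labelled C57BL/6 (the study's text has C57BL/6N for a sort of 3 mice), were stained for CD133 (prominin 1, the product of Prom1) and sorted by flow cytometry, and were sequenced in 3 libraries with the Chromium 3′ v2 chemistry. The young and the control library came from mice of 3 months by their labels, and the old library from mice of 27 months by its label but of 18.5 months by the text of the series, which also calls the cells intestinal where every sample label says bone marrow. The series text and the methods give 3 mice for each library, no treatment or transgene is given for any group, and the labels do not say how control and young mice differed. With 1 library for each group no test was possible, so every interval below covers counting error alone, and the age, the mice and the library cannot be told apart.

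The matrices held 10869 control, 8362 young and 10597 old cells. After removal of cells at both ends of the UMI distribution (a UMI, or unique molecular identifier, counts 1 captured RNA molecule) and of 77, 720 and 82 cells of other blood types, 9703 control, 6658 young and 9599 old cells were analysed, which held 95402733, 68394259 and 118777076 UMIs. The median cell had 9594 UMIs in the control, 10378 in the young and 12707 in the old library. Between 120 and 161 barcode sequences recurred in a pair of libraries. Prom1 stood at 45.9 to 52.8 CPM (UMIs per 1000000 UMIs of the same cells), whereas the endothelial gene Cdh5 had 1, 4 and 0 UMIs in the control, young and old cells and Tek had none. Kdr, Emcn and Vwf had between 1 and 14 UMIs in each library, and Pecam1, which blood cells also make, had 133, 102 and 347 UMIs (1.39 to 2.92 CPM), so 5 of the 6 endothelial markers were at or near 0. The analysed cells carried the neutrophil genes instead, with a summed level of 6 neutrophil precursor markers of 132655, 130829.7 and 114452 CPM.

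All 8 members lie on mouse chromosome 3 (GRCm38), 6 of them between positions 90511034 and 90695721 and S100a11 and S100a10 between 93520488 and 93564643. S100a8 (chr3:90668978-90670035, plus strand) and S100a9 (chr3:90692632-90695721, minus strand) are neighbours there, and S100a1 (chr3:90511034-90514392, minus strand) and S100a13 (chr3:90514435-90524581, plus strand) point away from each other from starts that are 42 bases apart. The annotation places S100a4 (chr3:90603771-90606045, plus strand) under Gm42674 on the same strand, so reads of this pair cannot be told apart by strand. RefSeq promoter sequences of GRCm38.p6 were found for 7 of the 8 members, all but S100a10. Shown are the bases just before the first annotated start of the pair that rose together, of S100a6, which stood highest in old relative to young cells, and of the stretch shared by S100a1 and S100a13, written 5′ to 3′ on the strand of the gene, with motif matches in capitals. The letters sought on both strands were TTGCNNAA for the C/EBP family, GAGGAA for the myeloid factor PU.1 and, for the core promoter element of that name, TATAAA.
S100a8, chr3:90668821-90668977: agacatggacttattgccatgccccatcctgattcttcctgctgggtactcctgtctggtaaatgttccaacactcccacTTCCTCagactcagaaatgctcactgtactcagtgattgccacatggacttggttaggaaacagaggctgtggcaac
S100a9, chr3:90695722-90695971: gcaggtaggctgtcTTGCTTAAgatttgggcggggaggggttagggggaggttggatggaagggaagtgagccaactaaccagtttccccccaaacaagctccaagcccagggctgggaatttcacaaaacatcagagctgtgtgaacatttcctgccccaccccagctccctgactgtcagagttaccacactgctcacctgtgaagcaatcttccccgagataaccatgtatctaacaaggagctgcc
S100a6, chr3:90612644-90612881: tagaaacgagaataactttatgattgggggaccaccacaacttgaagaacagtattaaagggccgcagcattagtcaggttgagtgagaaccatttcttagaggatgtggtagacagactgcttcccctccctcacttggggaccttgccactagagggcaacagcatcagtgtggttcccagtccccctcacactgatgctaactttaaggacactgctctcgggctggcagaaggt
S100a1 and S100a13, chr3:90514393-90514434, plus strand: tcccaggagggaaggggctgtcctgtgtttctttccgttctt

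The printed stretch of S100a9 held 1 match to the C/EBP letters and that of S100a8 held 1 match to the PU.1 letters, on its opposite strand. Over all 32851 promoter windows of 300 bases, 10.8% held the C/EBP letters, 28.3% the PU.1 letters and 13.6% the TATA letters. In their whole windows, which reach beyond the printed bases, S100a8 and S100a4 each held 1 TATA match, at -30 and -31 from the RefSeq start. The 1 TATA match of S100a9 lay at 0, on the start itself. PU.1 matches numbered 2 for S100a8, 1 for S100a4 and 1 for S100a11. S100a6, S100a1 and S100a13 held no match to any of the 3 motifs. These matches are letters only, and no binding was measured.

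S100a8 and S100a9 were the most abundant and the second most abundant transcripts of the analysed cells in each library. S100a8 made up 14.2% of all UMIs in the control, 14.6% in the young and 14.6% in the old library, and S100a9 made up 7.91%, 7.77% and 7.99%. The 8 members together took 22.4%, 22.6% and 23.1% of UMIs, of which the calprotectin pair held 98.9%, 98.7% and 98.0%. More than 1 in 5 captured RNA molecules of these cells thus came from 2 genes, at nearly the same share in all 3 libraries.

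The other 6 members spread over a wide range of levels. A 3′ method counts 1 tag for each captured molecule whatever the length of the transcript, so these levels can be set side by side. S100a11, which binds annexin A1, came next at 1854, 2176 and 2213 CPM in control, young and old cells. S100a6 (calcyclin) stood at 211 CPM in control, at 350.5 CPM in young and at 2060.0 CPM in old cells, the widest gap of any well-measured member. S100a13, which takes part in the release of proteins without a signal peptide, stood at 205, 221 and 248 CPM, and S100a1, best known from muscle, at 160.5, 168 and 185 CPM. These levels of S100a13 and S100a1 were close to each other in every library, and S100a6 exceeded both in each library, by least in control and by most in old cells. S100a10 was at 3.04, 14.4 and 1.89 CPM in control, young and old cells. S100a4 was the lowest member, at 0.807, 3.87 and 0.968 CPM, which rest on 77, 265 and 115 UMIs.

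**Figure D1:**
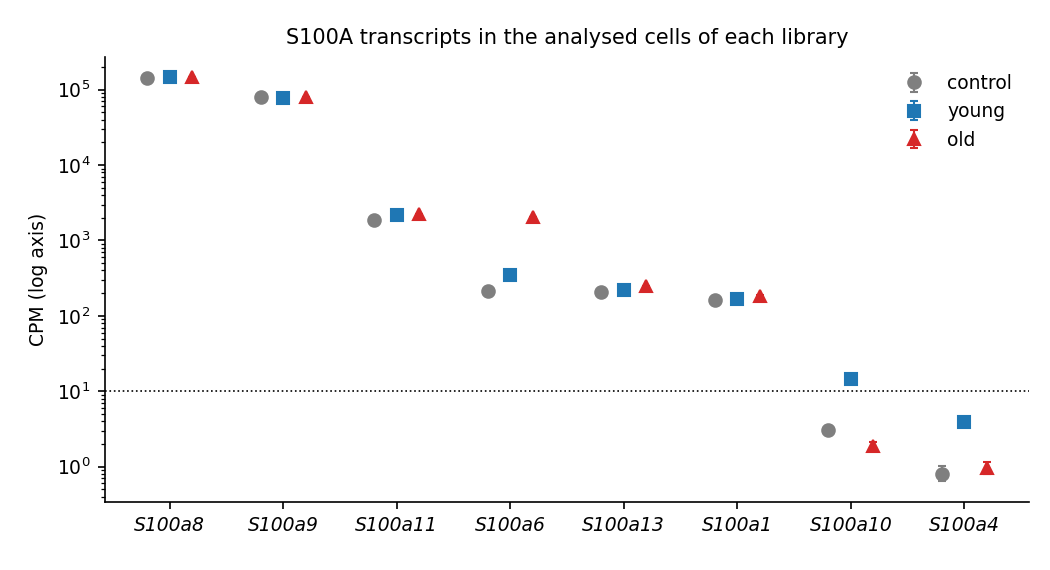
Level of the 8 S100A transcripts in CPM on a log axis, with 1 point for each library and bars for the exact 95% Poisson interval, which is mostly smaller than the point; the dotted line marks 10 CPM. The 3 libraries coincide for S100a8 and S100a9 near 145758 and 77709 CPM, whereas S100a6 stands at 2060.0 CPM in old cells against 211 and 350.5 CPM.

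Between the old and the young library, 1 member was at least 1.5 times higher (S100a6) and 1 at least 1.5 times lower (S100a10), where 5.05% of the 5588 genes that reached 10 CPM on one side were higher and 10.2% were lower. S100a6 was 5.88 times higher in old cells (95% interval 5.80 to 5.96), a ratio above that of 99.6% of these genes. S100a10 was 7.62 times lower (log2 ratio -2.93, interval -3.15 to -2.72). It reached 10 CPM in the young library alone (14.4 against 1.89 CPM), so it could be counted only as lower. S100a4 also stood lower in old cells (0.968 against 3.87 CPM), but at under 10 CPM in both libraries it was not counted. The other 5 members differed by at most 1.12 times, with S100a9 at 1.03 times the young level and S100a8 nearer still.

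Control cells stood below young cells in the same members. Of the 8, none was at least 1.5 times higher in control than in young cells and 2 were lower, S100a6 (1.66 times, log2 ratio -0.73, interval -0.76 to -0.70) and S100a10 (4.73 times), where 2.48% of 5556 genes were higher and 3.69% lower. These 2 libraries carry the same age label, so a difference of this size arose between libraries of mice of 1 labelled age. Here too S100a10 reached 10 CPM in young cells alone (14.4 against 3.04 CPM), and could be counted only as lower. Old over control, S100a6 was 9.74 times higher (interval 9.60 to 9.89) and no other member at 10 CPM passed 1.5 times, where 5.39% of 5452 genes were higher and 8.84% lower. The 3 comparisons share libraries, so they are not separate observations.

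The course of the members through maturation was read over 8 bands of cells set by Mpo and by Retnlg plus Mmp8, none of which is a member. Cells with at least 100, 50, 20 and 5 Mpo UMIs per 10000 UMIs of the cell formed bands 1 to 4, and cells with less Mpo formed bands 5 to 8, by under 1, at least 1, at least 10 and at least 50 UMIs of Retnlg plus Mmp8. Cells with markers of both ends (226 control, 281 young and 397 old) stayed outside the bands. The old library had 92 cells in band 1 and 863 in band 8, the control library 288 and 150, and the young library 549 and 192. Band 5 of the old library held 29 cells and is left out. Bands 5 and 6 differ by few UMIs: the young NK and T-like cells, which should make neither gene, had Mpo at 351 CPM and Retnlg at 330.4 CPM, so the order of these bands is the least certain.

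The calprotectin pair climbed through the Mpo bands and stood higher still, by smaller factors, once Mpo was below its last limit. S100a8 stood at 38146 CPM in band 1, 155252 CPM in band 4 and 207003 CPM in band 8 of the control library. It stood at 39873, 161553 and 195518 CPM in the same bands of the young library and at 33658, 128918 and 209442 CPM in the old library. The last band was thus 5.43, 4.90 and 6.22 times the first. S100a9 rose by 7.01, 6.44 and 6.96 times, from 17109, 16722 and 15715 CPM to 119961, 107691 and 109338 CPM. Band 8 was 1.09 to 1.27 times band 6 for S100a8 and 1.11 to 1.23 times for S100a9. Before that, S100a8 of the old library went from 128918 CPM in band 4 to 164912 CPM in band 6.

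The same increase could be followed in single cells. S100a8 and S100a9 together made up a median of 5.15% of a control cell's UMIs in band 1 and 34.0% in band 8, with 5.23% and 31.0% in young and 4.52% and 32.2% in old cells. The lowest analysed cell of a library had 1.43% to 2.50% and the highest 45.6% to 49.7%, so calprotectin transcripts reached close to 1 in 2 molecules of some cells. Across the cells of band 1, S100a8 and S100a9 went together, with Spearman correlations of 0.88, 0.92 and 0.88 over the 288 control, 549 young and 92 old cells. They were looser in band 8, at 0.78, 0.59 and 0.42 over 150, 192 and 863 cells. Both counts of a cell share its depth, so these values are a description.

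**Figure D2:**
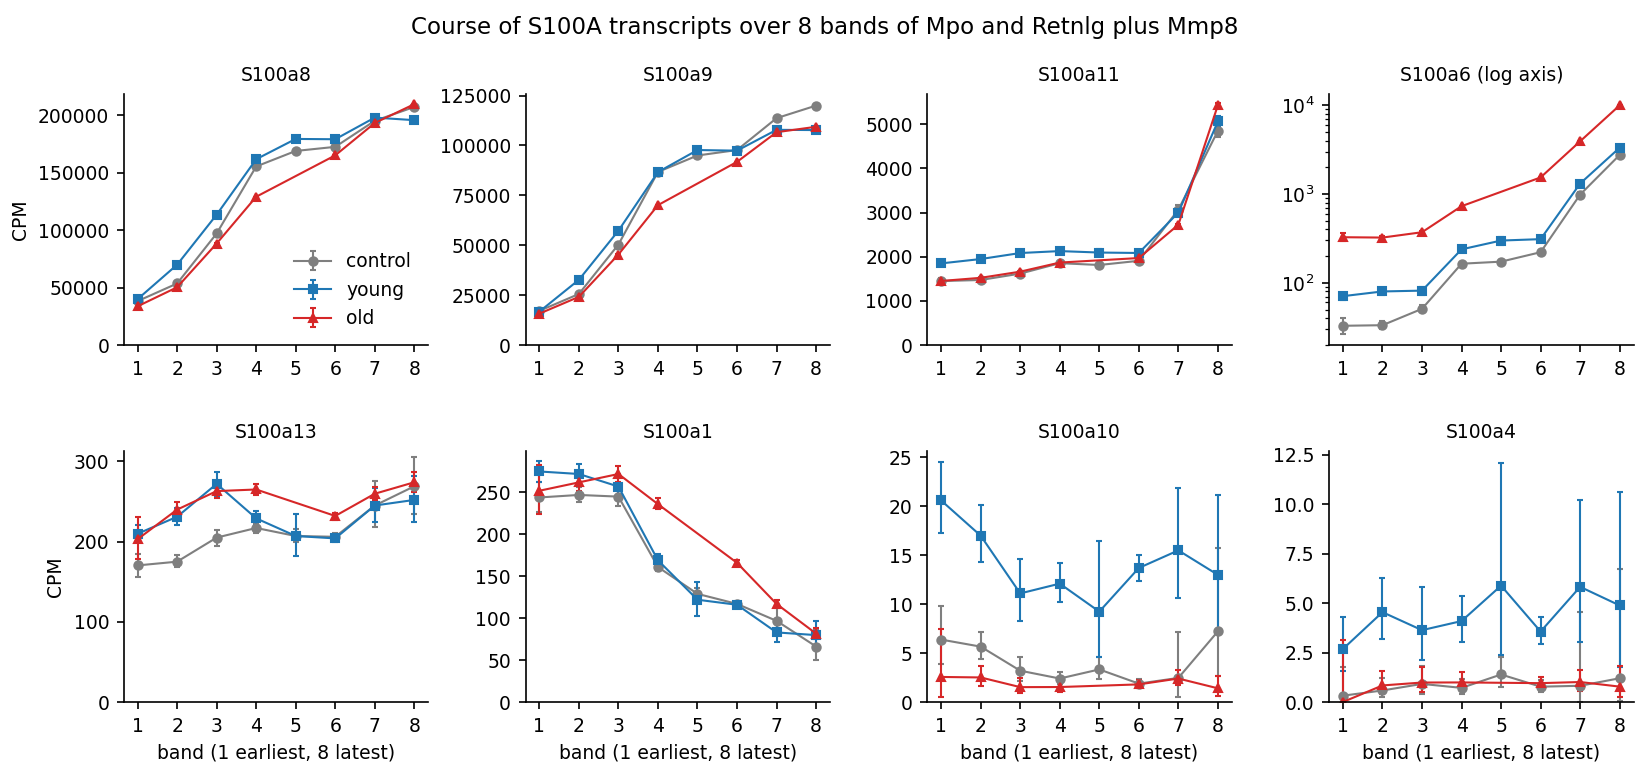
Level in CPM (vertical axes, linear except for S100a6) of each member over bands 1 (most Mpo) to 8 (most Retnlg plus Mmp8) in each library, with exact 95% Poisson intervals; bands under 50 cells are left out. S100a8, S100a9, S100a11 and S100a6 end highest in band 8 or 7, S100a1 goes down from between 244 and 275 CPM to between 66.2 and 81.6 CPM, and S100a10 and S100a4 show the young library above the other two at every band.

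Within the early bands the old cells had less S100a8 and S100a9 than the young cells, and in bands 2 and 3 so did the control cells. In band 2, S100a8 stood at 50221 CPM in old, 69831 CPM in young and 53501 CPM in control cells, so old cells were at 0.719 times the young level. Old over young, the ratio of S100a8 was 0.844, 0.719, 0.779 and 0.798 in bands 1 to 4, 0.922 and 0.976 in bands 6 and 7 and 1.07 in band 8. S100a9 followed with 0.940, 0.739, 0.792 and 0.809 in bands 1 to 4 and 1.02 in band 8. Control over young, S100a8 was at 0.957, 0.766, 0.855 and 0.961 times in bands 1 to 4. S100a9 was at 1.02, 0.782 and 0.879 times in bands 1 to 3, and at 86722 against 86647 CPM in band 4. Old over control, S100a8 was at 0.882, 0.939, 0.910 and 0.830 times and S100a9 at 0.919, 0.944, 0.901 and 0.808 times. Control cells were thus nearer to old cells in bands 2 and 3 and nearer to young cells in bands 1 and 4. No band passed 1.5 times for either gene. Cells of the same band also differed in granule genes. In band 4, Elane stood at 5136 CPM in old, 4466 CPM in young and 4436 CPM in control cells, and Ngp at 50047, 58685 and 60305 CPM. In band 1 old and young cells differed the other way, with Elane at 23539 and 28368 CPM and Ngp at 7247 and 4959 CPM. The part of stage within a band in these ratios was not tested. The libraries also differed in the cells they held. Band 1 held 0.958% of old and 8.25% of young cells, band 7 held 15.6% and 4.46%, and band 8 held 8.99% and 2.88%. The part of these cell shares in the near-equal levels over whole libraries was not tested. The shares also depend on the UMI limits, and the lowest kept young cell had 3827 UMIs. Before these limits, in a finer clustering, a cluster with Retnlg at 28642 CPM and a median of 3586 UMIs held 513 young and 78 old cells. Another, with Retnlg at 26999 CPM and a median of 5896 UMIs, held 11 and 490. The part of the limits in the shares was not tested. With CPM averaged over the compared bands at equal weight, the ratio of the averages, old over young, was 0.908 for S100a8 and 0.915 for S100a9.

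The proportion of S100a8 to S100a9 changed along the course. There were 2.230 S100a8 UMIs for each S100a9 UMI in band 1 of the control library (interval 2.207 to 2.253), 1.790 in band 4 and 1.726 in band 8. In the young library the ratio went from 2.384 to 1.864 and 1.816. In the old library it went from 2.142 to 1.840 and was then 1.916 in band 8 (interval 1.910 to 1.921), above its band 7 value of 1.811. In all 3 libraries S100a8 thus led S100a9 by more in the cells with most Mpo, and band 8 of the old library stood apart from the other two by its increase.

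**Figure D3:**
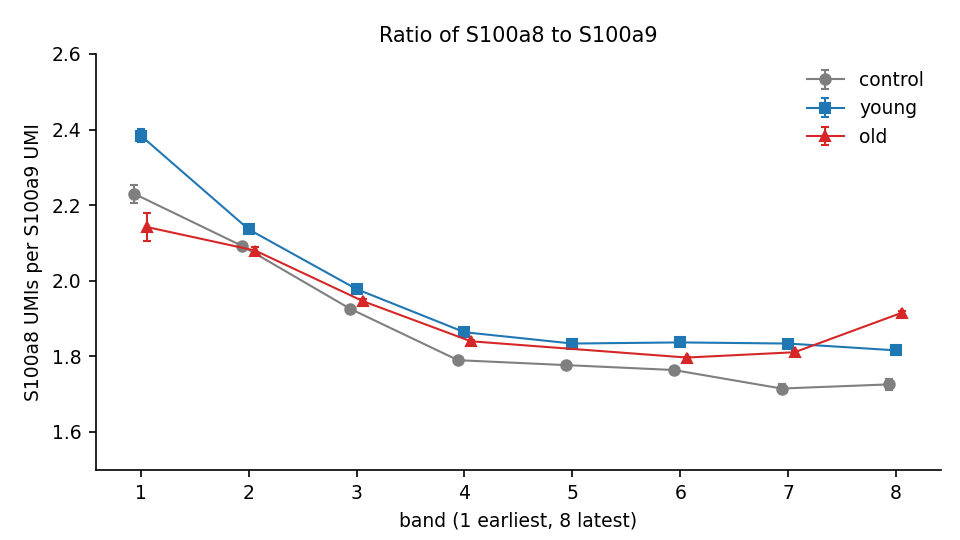
S100a8 UMIs for each S100a9 UMI (vertical axis, from 1.5) over the 8 bands in each library, with exact 95% conditional binomial intervals. The ratio goes down from between 2.142 and 2.384 in band 1 to between 1.790 and 1.864 in band 4, and the old library goes up again to 1.916 in band 8.

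Free RNA in the droplets can give UMIs of a gene in cells that do not make it. The 54 NK and T-like cells of the young library, with a median of 7868 UMIs, all had UMIs of both genes, at 18298 and 11387 CPM. This was 12.6% and 14.7% of the level over the young library, close to 11.4% for Ngp, 12.7% for Camp and 13.3% for Lcn2 in the same cells, and in the proportion of 1.607 to 1. In band 1, S100a8 stood at 26.8%, 27.4% and 23.0% of its library level in control, young and old cells and S100a9 at 21.6%, 21.5% and 19.7%. The granule gene Camp stood at 16.9%, 14.8% and 19.6% there, Lcn2 at 13.4%, 10.7% and 18.3% and Ngp at 11.7%, 9.40% and 13.6%. S100a8 was thus above these 3 genes in each library, whereas S100a9 of old cells was at the share of Camp. The part of free RNA in the band 1 levels was not tested. Since every cell had both genes, the share of cells with a UMI (100% in each library) carries no information on which cells make them.

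S100a6 had the steepest course of the family. In control cells it stood at 32.8 CPM in band 1, 221 CPM in band 6, 984 CPM in band 7 and 2753 CPM in band 8. In young cells the same bands were at 70.7, 310.1, 1311 and 3320.0 CPM, and in old cells at 326, 1536, 3919.8 and 9962 CPM. Band 8 was 83.8 times band 1 in control, 46.9 times in young and 30.5 times in old cells. Most of this came late, with band 8 at 12.5, 10.7 and 6.48 times band 6. In the last band of the old library S100a6 alone was 0.996% of all UMIs.

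The difference between old and young cells in S100a6 was present in all 7 bands that could be compared. Old over young, it was 4.62, 4.05, 4.55 and 3.06 times in bands 1 to 4, 4.95 times in band 6, 2.99 times in band 7 and 3.00 times in band 8 (interval of the log2 ratio 1.54 to 1.63). Between 5.84% and 10.6% of genes were at least 1.5 times higher in old cells in these bands. Old over control, it ran from 3.62 times in band 8 to 9.94 times in band 1. With CPM averaged over the compared bands at equal weight, the ratio of the averages was 3.17 times old over young and 4.05 times old over control. These averages rest mostly on bands 7 and 8, where S100a6 was highest, so they are not typical ratios within a band. They lay below the 5.88 and 9.74 times over whole libraries, in which the old library had more late cells after the UMI limits. Control over young, S100a6 was lower in all 8 bands, by 2.40 times in band 2 and 1.21 times in band 8.

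The early bands say less about S100a6 than the late ones. In band 1 it stood at 15.5% of its library level in control, 20.2% in young and 15.8% in old cells. In control and old cells this lay within the range of Ngp, Lcn2 and Camp given above, and in young cells it lay above all 3. Whether these counts come from the cells was not tested. With 12.6% of the library level taken off each band, a setting chosen after the data were seen that takes the share of free RNA as equal in all libraries, old over young was 2.52, 1.78, 2.98 and 2.42 times in bands 1 to 4, and 4.80, 2.89 and 2.96 times in bands 6, 7 and 8. Control over young was then 0.234 times in band 1 and 0.187 times in band 2, so that in these bands the libraries labelled 3 months differed by more than old and young did. In bands 6 to 8 both comparisons hardly moved.

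The shift in S100a6 involved most cells of a band rather than a few. In band 6 the median control cell had 0.927 S100a6 UMIs per 10000 UMIs, the median young cell 1.55 and the median old cell 10.6. The lowest 5% of old cells lay under 2.24 and the highest 5% of young cells above 15.3, so the ranges overlapped. In band 8 the medians were 24.4, 28.1 and 101 per 10000, and 95% of the 863 old cells lay above 35.8, which exceeds the medians of both other libraries. With each cell of band 6 thinned to 3000 UMIs, 34.3% of control, 44.3% of young and 88.9% of old cells had an S100a6 UMI (58.2%, 75.7% and 99.6% unthinned). In band 1 the shares after thinning were 8.68%, 19.5% and 62.0%. The part of free RNA in these shares was not tested.

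**Figure D4:**
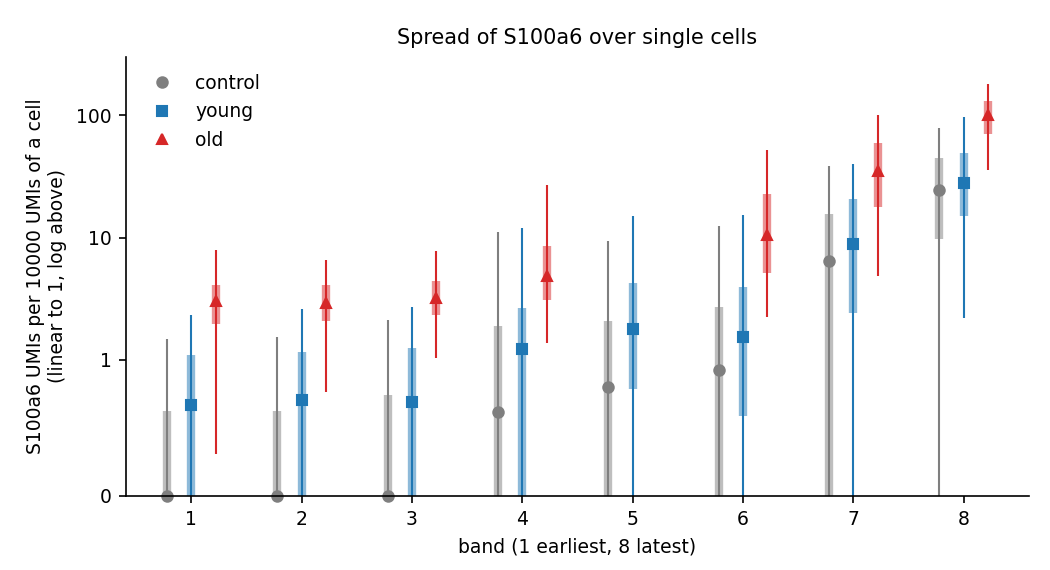
S100a6 UMIs per 10000 UMIs of a cell (vertical axis, linear to 1 and logarithmic above) in bands 1 to 8 of each library; points are medians over cells, thick bars the middle 50% and thin lines the 5th to 95th percentile of cells. Old cells lie above control and young cells in every band shown, with medians of 101 against 24.4 and 28.1 in band 8.

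S100a6 was also higher in the old library among cells set apart from the neutrophil course. The monocyte-like cells that had been set aside (42 control, 464 young and 62 old cells) had 2097, 1826 and 3275 CPM of S100a6. The old value was above the intervals of the other libraries (1947 to 2256 and 1785 to 1869). Late neutrophil genes were highest in the same old cells, with Retnlg at 529, 521 and 973 CPM and Mmp8 at 277, 72.1 and 353 CPM, and Ngp was found in 100% of these cells. Their part in the S100a6 difference was not tested. Control and young monocyte-like cells had several times the S100a6 level of the band 6 cells of their libraries.

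S100a11 changed little until the Retnlg and Mmp8 bands and then climbed. It stood at 1449, 1849 and 1451 CPM in band 1 and at 1908, 2085 and 1970.3 CPM in band 6 of the control, young and old libraries. In band 8 it reached 4854, 5066 and 5433 CPM, which was 2.54, 2.43 and 2.76 times band 6. Old cells had less of it than young cells in bands 1 to 4 (0.781 to 0.878 times). In band 8 they had 1.07 times as much, again within 1.5 times. Control cells, of the same labelled age as young cells, were also lower, at 0.784, 0.756, 0.776 and 0.871 times in bands 1 to 4. Old over control, S100a11 was at 1451 against 1449 CPM in band 1 and at 1.03, 1.03 and 1.01 times in bands 2 to 4. In these bands the young library thus stood above both others, so the difference did not follow the labelled age. An S100a11 UMI was found in 99.1% to 99.5% of cells after thinning to 3000 UMIs, against 85.2% of the NK and T-like cells, where the level was 783 CPM.

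S100a13 and S100a1, which start next to each other on opposite strands, took different courses. S100a13 stayed between 170.3 and 274 CPM in all bands of at least 50 cells, and its last band was 1.58, 1.20 and 1.35 times the first in the control, young and old libraries. S100a1 was highest early, at 244, 275 and 252 CPM in band 1, and lowest in band 8, at 66.2, 79.8 and 81.6 CPM. It was thus 3.69, 3.44 and 3.09 times lower in the last band, a change in the direction of most genes, since 61.9%, 61.9% and 64.3% of genes were at least 1.5 times lower there. The old library kept S100a1 longer: in band 4 it stood at 236 CPM against 169 CPM in young and 161 CPM in control cells, and old over young was 1.40, 1.44 and 1.41 times in bands 4, 6 and 7 but 0.918 times in band 1 and 1.02 times in band 8. None of these reached 1.5 times, and the part of stage within a band was not tested. In the NK and T-like cells S100a1 was at 40.0 CPM and S100a13 at 278 CPM, so the latter was as high there as in any neutrophil band.

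Over the whole course, 5 members were at least 1.5 times higher in band 8 than in band 1 in the control library (S100a8, S100a9, S100a6, S100a11 and S100a13), where 17.1% of 6497 genes were. The counts were 4 in the young and 4 in the old library, where 14.2% and 16.7% of genes were, and S100a13 was the member that dropped out. In the other direction, 61.9% of genes in the control, 61.9% in the young and 64.3% in the old library were at least 1.5 times lower. The count of members was 1 in the control library and 1 in the old library (S100a1), and 2 in the young library. There S100a10 joined it, with 16 UMIs in band 8 and an interval of the log2 ratio from -1.51 to 0.09. With no cells set aside its log2 ratio was 0.55 in place of -0.66, so this direction is not settled.

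Most transcripts of S100a10 and S100a4 lay outside the analysed cells. Of all S100a4 UMIs in kept cells, 70.8% in the control, 87.8% in the young and 79.5% in the old library lay in the few cells set aside, and of S100a10 UMIs 58.5%, 83.6% and 72.1%. The monocyte-like cells had S100a4 at 546, 462 and 698 CPM and S100a10 at 999, 1009 and 879 CPM. The NK and T-like cells had S100a10 at 1010.1 CPM, with a UMI in 100% of cells, and S100a4 at 116 CPM. By contrast, S100a8 had 0.154%, 1.71% and 0.203% of its UMIs in the set-aside cells.

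**Figure D5:**
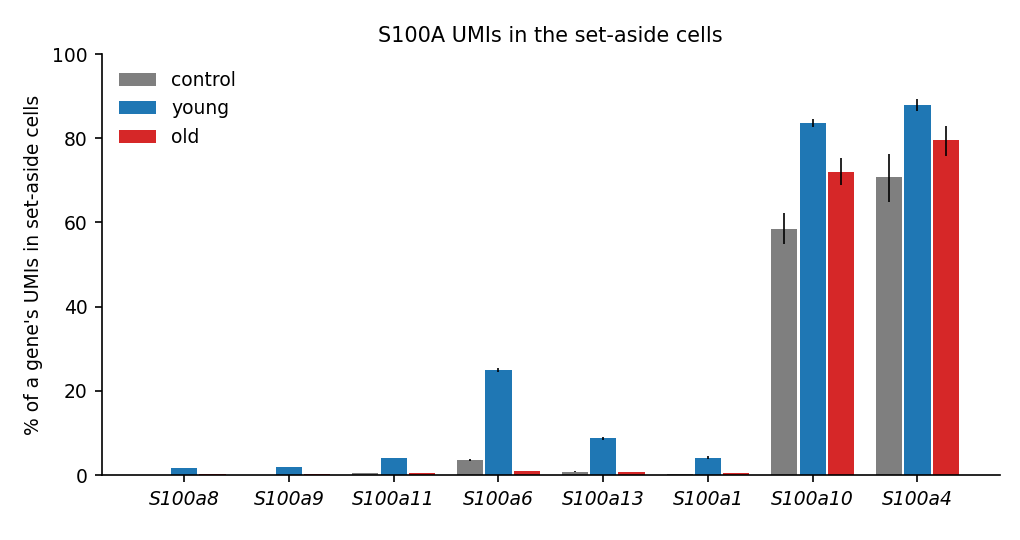
Share of each member's UMIs (in percent of all its UMIs in kept cells) that lay in cells assigned to other blood lineages, for each library, with exact 95% binomial intervals. S100a10 and S100a4 had between 58.5% and 87.8% of their UMIs there, S100a6 comes next in the young library, and the highest of the remaining bars is S100a13 in the young library at 8.72%.

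What remained of these 2 genes in the analysed cells was higher in the young library at every band. S100a10 ran from 9.24 to 20.6 CPM over the young bands, from 1.88 to 7.22 CPM over the control bands and from 1.40 to 2.56 CPM over the old bands. In control cells it was at 6.38 CPM in band 1, 1.88 CPM in band 6 and 7.22 CPM in band 8, the last from 6 UMIs. The interval of that last band's log2 ratio to young cells ran from -2.49 to 0.58. S100a4 ran from 2.68 to 5.88 CPM over the young bands. In the 6 bands with enough counts, S100a10 was 6.48 to 9.32 times lower in old than in young cells, and S100a4 was 3.69 to 6.29 times lower. The young library had 9.76% of its kept cells set aside against 0.787% and 0.847%, and the summed level of 7 monocyte markers in its analysed cells was 33.0 CPM against 8.26 CPM in control and 14.6 CPM in old cells, with none of the 7 at 0 in any library. Over all kept cells, S100a10 stood at 7.28 CPM in the control, 80.5 CPM in the young and 6.71 CPM in the old library. S100a4 stood at 2.75, 29.1 and 4.69 CPM. The part of the set-aside cells, and of free RNA from them, in the S100a10 and S100a4 ratios of the analysed cells was not tested.

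Within 1 band, the levels of several members also differed between cycling and non-cycling cells. Band 6 was split by the summed UMIs of 8 mitotic genes into cells with at least 5 per 10000 (2723 control, 2401 young and 3134 old cells) and cells with under 1 (147, 112 and 79). S100a6 stood at 174 CPM in cycling and 594 CPM in non-cycling control cells, at 245 and 867 CPM in young cells and at 1306 and 3446 CPM in old cells, which was 3.42, 3.54 and 2.64 times lower in cycling cells. S100a11 was 1.53, 1.49 and 1.44 times lower and S100a13 was 1.43, 1.46 and 1.28 times lower in cycling cells. S100a8 was 1.23, 1.24 and 1.23 times lower. S100a1 went the other way, at 1.32, 1.06 and 1.42 times its non-cycling level, the young value having an interval of the log2 ratio from -0.24 to 0.42. In band 4 of the control library, with 77 non-cycling cells, S100a6 was 4.68 times lower and S100a1 2.24 times higher in cycling cells. Cycling cells of band 6 had more UMIs (medians of 9716, 10661 and 13563 against 6313, 6134 and 10886). The part of depth, and of the stage of the cells within the band, in these ratios was not tested. Old cells kept more S100a6 than young and control cells on both sides of the band 6 split.

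Genes whose course was most like a member's were sought over 23 profiles of band and library among 5682 genes, by Pearson correlation of log2(CPM + 1), as a description. S100a9 was first for S100a8, at 0.999, followed by B430306N03Rik and Lmo4. For S100a6 the 3 highest were Arl2bp, Tmem120a and Fcgr4 (an Fc receptor of myeloid cells), at 0.979 to 0.975. For S100a11 they were Btg2, Stk17b and Samhd1, at 0.974 to 0.965. S100a1 went with the ribosomal protein genes Rps18, Rpl3 and Rpl15, at 0.982 to 0.978. S100a13 had its highest value at 0.881 (Dok3), and S100a10 went with H2-Q6, Irgm1 and Ifi35, at 0.946 to 0.931. S100a4 did not reach 10 CPM and was not compared. Among the members, the profiles of S100a6 and S100a11 correlated at 0.80 and those of S100a8 and S100a1 at -0.82. The profiles share libraries and depth, and the members of a library's profiles share their denominator.

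The other genes of the system were mostly low. Of 10 further S100 genes, 9 were in the matrices and none reached 10 CPM, the highest being S100a3 at 0.901, 0.687 and 0.674 CPM. Of 6 receptor genes for S100 proteins, Bsg (basigin, described as a receptor of S100A9) stood at 176, 177 and 155 CPM in the 3 libraries. Over whole libraries, Tlr4, its partner Ly96, Ager (the receptor for advanced glycation end products), Cd14 and Cd36 stayed under 10 CPM. Tlr4 was closest, at 7.67, 7.84 and 9.18 CPM, and Cd14 stood at 2.58, 1.20 and 6.50 CPM. Some single bands were higher. In band 8, Ly96 stood at 7.22, 24.4 and 17.4 CPM (6, 30 and 112 UMIs) in control, young and old cells. Cd14 stood at 14.4, 3.26 and 24.5 CPM there (12, 4 and 158 UMIs). Tlr4 stood at 12.8 CPM in band 1 (15 UMIs) and at 10.6 CPM in band 8 (68 UMIs) of old cells.

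Of 11 genes for proteins that bind S100 proteins, 6 reached 10 CPM, and 3 of these were at least 1.5 times higher in old than in young cells and none lower, where 5.05% of all genes were higher and 10.2% lower. They were annexin genes: Anxa1 at 3263, 3101 and 5827 CPM in control, young and old cells, Anxa2 at 243 CPM in control and 476 CPM in old cells with the young level beside the control, and Anxa11 at 130.1, 119 and 206 CPM. The median log2 ratio of the 6 was 0.55, where that of all genes was -0.08. The study had already reported Anxa1 as higher in old cells from these data, and the list was chosen with earlier results known. The count and the median are therefore a description and not separate support. Cacybp, which encodes the calcyclin-binding protein named for its binding of S100A6, went the other way, at 129, 104 and 71.0 CPM. Old over control, the same 3 annexin genes were higher and Cacybp was lower (log2 ratio -0.87), where 5.39% of all genes were higher and 8.84% lower. Anxa2, whose protein pairs with S100A10, was therefore well above S100a10 in the analysed cells of each library.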

How the data were processed

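Single-cell RNA was counted in 3 libraries of sorted CD133+ mouse bone marrow cells, 1 for each group, so no test was run. By the submitters' processing notes, the authors aligned reads to mm10 with STAR and counted them with Cell Ranger 2.1.0, and they deposited them as matrices of whole UMI counts by gene and cell; barcodes end in a number for each library, and any joint aggregation or depth equalisation is not given in the sources used here. The barcodes number as many as the cells that the study gives. After the study's filters, cells with at least 200 genes, at most 20% mitochondrial UMIs and a UMI count between the 5th and 95th percentile were kept. The percentiles were taken for the control library alone and for the young and old libraries together. Cells within the gene and mitochondrial limits, at any UMI count, were clustered with scanpy 1.11.5 and leidenalg 0.10.2 (2000 variable genes, 20 components, 15 neighbours, resolution 1, with S100 genes, Mpo, Retnlg and Mmp8 held out). Clusters with at least 3 markers of another blood lineage at 10 times their level elsewhere were set aside. Such a class is called monocyte-like or NK and T-like; a cluster with B cell, erythroid and basophil genes together stayed unnamed. No doublet caller was run; cells with markers of both ends of the course were left out of the bands instead. UMIs were summed per library, band or class and scaled to CPM with exact 95% Poisson intervals, shares with exact (Clopper-Pearson) intervals and ratios with exact conditional binomial intervals, with numpy 2.4.6 and scipy 1.17.1, and no ratio was taken where a count was under 4. All cover counting error only, and a count of 0 allows up to 3 counts, or 0.0253 to 0.0439 CPM over a library. The ratio and interval code was tested on simulated data. A member was counted where it passed 1.5 times with at least 10 CPM in either group. Bands and classes had at least 50 cells unless their number is given. Named genes are the 8 members, listed S100 genes, receptors, partners and granule genes, and the 3 genes most like each member; members and lists were chosen with earlier results of these data known. Alternatives were no or library-wise UMI limits, no cells set aside, resolution 2, other denominators, no depth scaling, equal band weights, other band, CPM and size limits, and thinning.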

Additional observations from a re-analysis of the deposited data

Results flagged for a closer look

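In 5 instances a member stood on opposite sides of 1 in the first and the last band of the same pair of libraries, with both intervals clear of 0 on the log2 scale. Old over young, the log2 ratio of S100a8 was -0.24 in band 1 and 0.10 in band 8, that of S100a9 was -0.09 and 0.02, and that of S100a11 was -0.35 and 0.10. Control over young, S100a8 was at -0.06 and 0.08, and old over control it was at -0.18 and 0.02. With 1 library for each group the difference between the bands was not tested, and no value reached 1.5 times.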

How the results depend on the processing

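No paired analysis was possible because each group is 1 library, and for the same reason no replicate could be left out. S100a6 stayed more than 1.5 times higher in old cells, and S100a10 lower than in young cells, under each alternative for the ratios. The size for S100a6 moved: 5.88 times, old over young, became 4.41 times without UMI limits and 4.75 times with library-wise limits. Its young level went from 350.5 CPM to 439.8 and 407 CPM under these settings, and its old level from 2060.0 CPM to 1938 and 1932 CPM. Ratios of S100a8, S100a9 and S100a11 between libraries lay so close to 1 that 7 of them changed sign under some setting, between 0.906 and 1.04 times.

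With S100a8 and S100a9 out of the denominator but kept among the members, the 8 members came to 28.7%, 29.2% and 29.9% of it in control, young and old cells. Without depth scaling, their UMIs per cell were set against the mean UMIs per cell of all analysed cells together. They came to 20.2%, 21.4% and 26.3% of that mean, so the depth of each library enters these values. With none set aside, the members took 21.1% of UMIs in young cells. Members past 1.5 times became 2 lower in old than young cells with none set aside, 3 higher in old than control cells without depth scaling, and 1 lower in control than young cells with equal band weights. Without depth scaling the ratios include the depth of the libraries (medians of 12707 UMIs in old and 9594 in control cells). For these counts and those that follow, the share of all genes was not taken, so they are no result about the members. Members lower in band 8 of the young library became 1 without UMI limits, with none set aside, at resolution 2, with S100a8 and S100a9 out of the denominator, with band limits 0.5 times as high and after thinning. The member lost was S100a10, whose log2 ratio of -0.66, from 16 UMIs in band 8, became 0.55 with none set aside and 0.23 after thinning, and the cause was not tested.

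The share of all genes lower, old over young, was 5.12% at a minimum of 50 CPM and 18.4% at 1 CPM; control over young it was 7.62% at 1 CPM; old over control it was 5.80% and 14.7%. With a limit of 2 times the shares were 2.15% higher and 2.83% lower, 0.414% and 1.76%, and 1.91% and 1.41%, in the order old over young, control over young and old over control.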
